A study of Mus musculus with 10 samples.

Results

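The genes described here are 45 mouse genes of the interferon response and of class I antigen presentation, chosen by name, each read from the brightest of its probe sets that carry a single gene symbol in the platform annotation. Of these, 43 had such a probe set, and 41 passed the filter on low values (a log2 value over 4 on at least 4 arrays) and were tested among 14321 genes. Isg15 and Ifi44 had no such probe set and were not tested, and Oas3 and Mx2 lay under the filter. The tissue was the aorta of male mice of strain C57BL/6 on a chow diet. The 5 knockout samples (Ptgds-/-, labelled L-PGDS KO) lack the enzyme L-PGDS, which makes prostaglandin D2. They were set against 5 wild type samples, of which replicate 2 was excluded per its label and carried no values, so 5 knockout and 4 wild type arrays were compared. The labels call the samples biological replicates and give no age, litter, substrain or scan batch. They do not say which part of Ptgds the allele lacks. The p-values measure the spread between these samples.

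All values are on the log2 scale of the deposited table, where each step of 1 doubles the signal. Ptgds itself had 3.86, 3.92, 3.76, 3.67 and 4.40 on the knockout arrays, against 9.11, 10.31, 8.79 and 8.68 on the wild type arrays. The arrays had medians of 5.88 to 5.97, and each correlated with the others at a mean r of 0.990 to 0.992, except wild type replicate 3 at 0.983. Smooth muscle markers (Acta2, Myh11 and others) averaged 13.23 to 13.28 on knockout arrays and 13.02 to 13.23 on wild type arrays. Of these, 5 of 5 were higher in the knockout, and 5 of 5 were lowest on wild type replicate 3. That array was the lowest in 25.5% of all tested genes, the largest share of any array. Endothelial markers averaged 9.17 to 9.49 on knockout arrays and 9.30 to 9.78 on wild type arrays, and 6 of 6 were lower in the knockout. Adipocyte markers averaged 10.46 to 11.38 on knockout arrays and 11.15 to 11.56 on wild type arrays, and 6 of 6 were lower in the knockout. Over all tested genes 43.3% were lower and 56.7% higher. In each of these marker lists 0 genes passed the adjusted threshold (limma). The tissue is a mixture, so fewer cells of a type and less RNA per cell cannot be told apart.

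Type I interferons bind a receptor whose kinases activate STAT proteins, which with IRF9 bind the interferon-stimulated response element (ISRE) and switch on antiviral genes. Interferon gamma acts through a related path and a shorter element, the gamma-activated site (GAS), and raises the immunoproteasome, the peptide transporter and class I molecules that show peptides to CD8 T cells. In the vessel wall, endothelial, smooth muscle and immune cells all carry these receptors, and most cells hold a low level of the response genes without infection.

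Below are 6 promoter stretches, shown because they carry the ISRE core, searched as GAAA, any 2 bases and GAAA on either strand. The sequences are RefSeq promoter bases of build GRCm38.p6, read 5′ to 3′ on the strand of the gene and ending before the start site, with the ISRE matches in capitals. Overlapping matches run together, as in Oas1a and Gbp3. Ifit1, Rsad2 and Oas1a are antiviral effectors, Igtp and Gbp3 are interferon-induced GTPases, and B2m is the light chain of class I molecules.
Ifit1, chr19:34640755-34640843, plus strand: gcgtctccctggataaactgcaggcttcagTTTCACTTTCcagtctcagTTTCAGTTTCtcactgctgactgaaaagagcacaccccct
Rsad2, chr12:26456533-26456602, minus strand: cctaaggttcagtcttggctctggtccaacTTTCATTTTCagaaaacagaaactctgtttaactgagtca
Oas1a, chr5:120907526-120907575, minus strand: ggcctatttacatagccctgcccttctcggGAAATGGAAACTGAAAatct
Igtp, chr11:58199492-58199555, plus strand: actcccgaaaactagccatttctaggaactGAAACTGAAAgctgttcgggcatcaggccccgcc
Gbp3, chr3:142559969-142560043, plus strand: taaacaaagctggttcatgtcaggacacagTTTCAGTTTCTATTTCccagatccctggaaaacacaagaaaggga
B2m, chr2:122147518-122147587, plus strand: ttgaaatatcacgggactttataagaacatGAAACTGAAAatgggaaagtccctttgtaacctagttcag

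The Ifit1 window held 2 separate matches, starting 104 and 85 bases before the start site, and the Oas1a window held 2 that overlap, 20 and 14 bases before it. Over the whole promoter window (250 bases before to 50 after the start site), 17 of the 33 listed genes with a promoter in the table held the ISRE core. Of all 27025 genes in the table, 3.99% held it, and of the 11466 tested genes with a promoter, 3.62%. The GAS letters TTCNNNGAA, searched on both strands, were in 9 of the 33, against 9.55% of all genes in the table. A match is a stretch of letters and not a measured binding site.

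None of the 41 tested genes differed between the genotypes past an adjusted p of 0.05 (limma), where 0.0559% of all tested genes did. Of the 41, 31 were lower in the knockout and 10 were higher, and the median difference was -0.13. Over all genes 43.3% were lower and 56.7% higher, with a median of 0.027. The unadjusted p was under 0.05 for 3 of 41, each lower in the knockout (H2-K1, Nlrc5 and H2-D1). Over all genes the share was 19.9%, made up of 7.12% lower and 12.8% higher. H2-K1 was the 1 tested gene of the 41 whose knockout values all lay below all wild type values, as in 2.16% of all genes (6.76% in either direction).

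The lean toward lower knockout values rested on 1 wild type array. Without wild type replicate 3, 24 of the 41 stood higher in the knockout and 17 lower, with a median of 0.026. In the same fit 56.3% of all genes were higher, with a median of 0.024. In that fit 0 of 41 passed the adjusted threshold (0.0209% of all genes), and 4 reached an unadjusted p below 0.05, a level met by 15.3% of all genes. Those 4 were H2-K1 and Nlrc5 on the lower side and Irf1 and Ifit2 on the higher side. Between the 2 fits, 14 of the 41 genes changed sign. Without wild type replicate 1 instead, 0 of 41 passed, where 7.34% of all genes did.

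**Figure D1:**
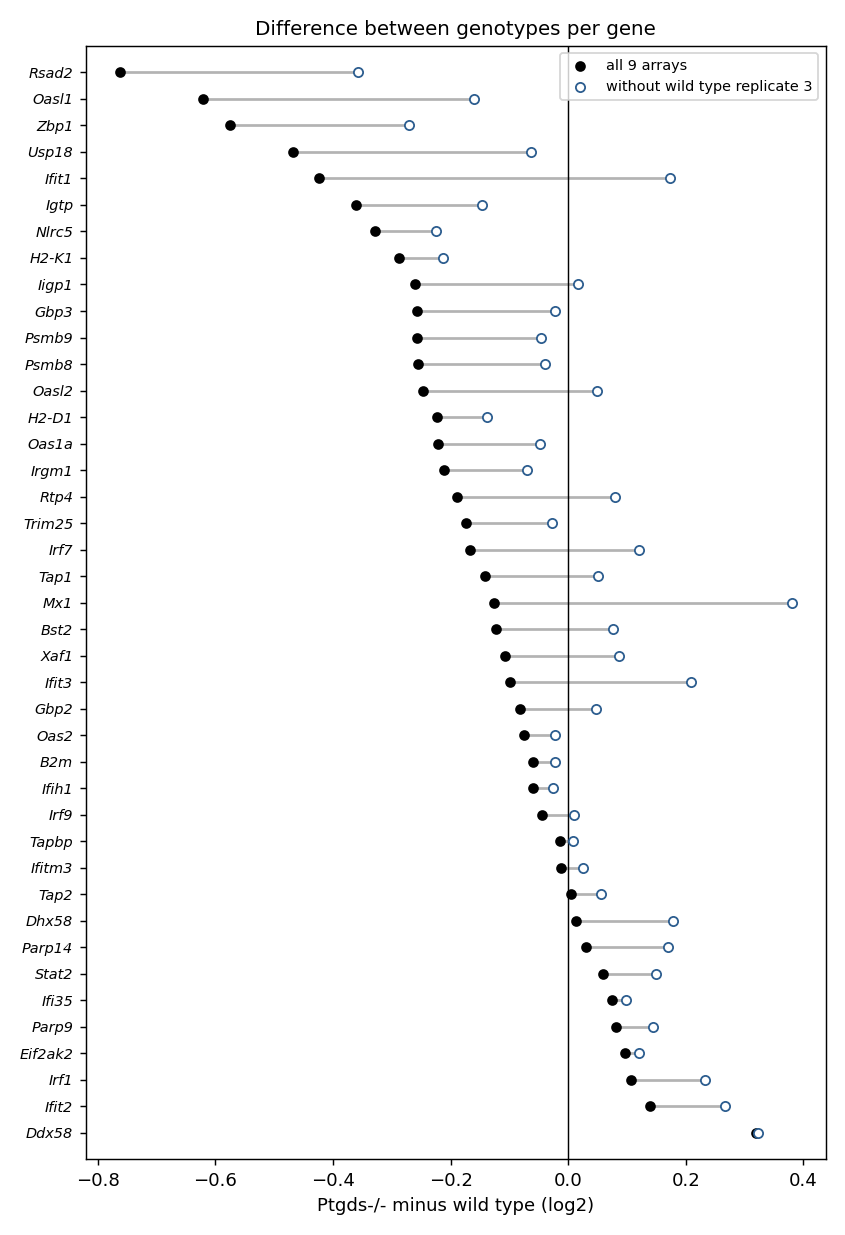
Difference between Ptgds-/- and wild type aortas (log2, horizontal axis) for each of the 41 tested genes (rows), from all 9 arrays (black) and without wild type replicate 3 (open blue). The open points lie to the right of the black ones, nearly touching for Ddx58 (0.32 in both), and the median is -0.13 with all arrays and 0.026 without that replicate.

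Wild type replicate 3 held the highest value of all 9 arrays in 34 of the 41 genes, where it did so in 16.3% of all tested genes. The next arrays, knockout replicates 4 and 5 and wild type replicate 1, held the highest value in 2 each. In 16 of the 41 the value on wild type replicate 3 was at least 0.5 above every other array, where 3.99% of all genes were. Within wild type, this array was the highest in 37 of the 41 and the lowest in 0. The median gene of the 41 stood 0.60 above the mean of the other 8 arrays there, against -0.053 over all genes.

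**Figure D2:**
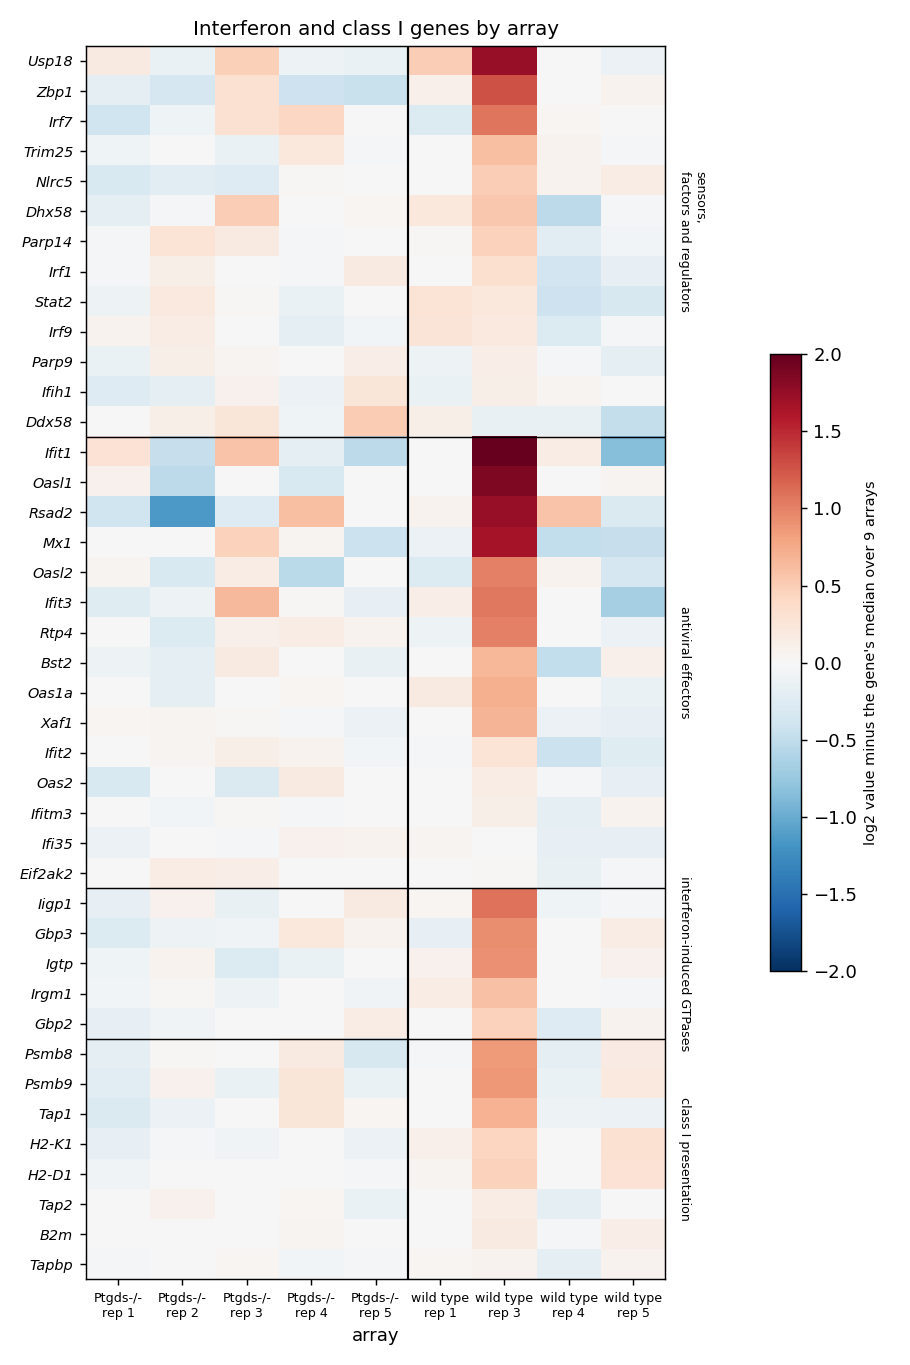
Heat map of the 41 tested genes (rows, by role) on 5 Ptgds-/- arrays (left) and 4 wild type arrays (right). Colour is the log2 value minus the gene's median over the 9 arrays, and wild type replicate 3 is the one column that is red in most rows.

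The role groups stood above the other arrays there by unequal amounts. Measured as the median gene against the mean of the other 8 arrays, the excess was 0.95 for interferon-induced GTPases, 0.75 for antiviral effectors, 0.45 for sensors, transcription factors and regulators, and 0.43 for class I presentation. The mean of the 41 genes was 8.51, 8.53, 8.68, 8.62 and 8.58 on knockout replicates 1 to 5, against 8.63, 9.28, 8.50 and 8.53 on wild type replicates 1, 3, 4 and 5. Apart from wild type replicate 3, the arrays of both genotypes overlapped.

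**Figure D3:**
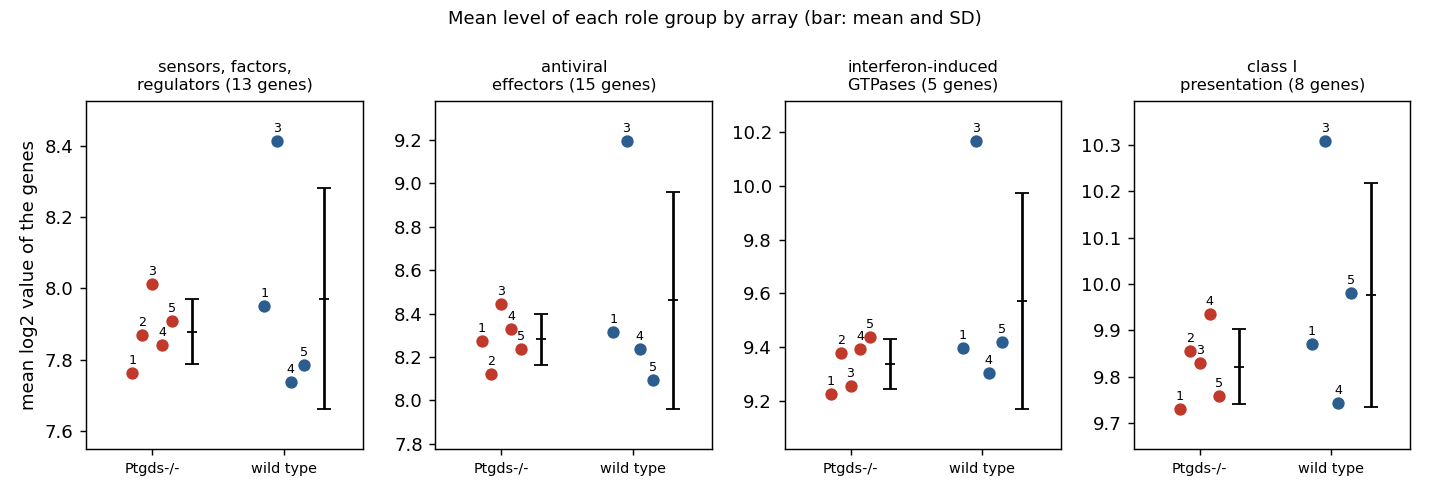
Mean log2 value (vertical axis) of the tested genes of each role on each array, with Ptgds-/- in red, wild type in blue, replicate numbers beside the points, and bars for the group mean and SD (n = 5 and 4). Wild type replicate 3 lies above all other arrays in every panel, and the remaining points of both genotypes overlap.

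Of the 13 sensors, transcription factors and regulators, 6 were higher in the knockout and 7 lower, with a median of -0.044, and 0.12 without wild type replicate 3. Among the sensors, which recognise foreign nucleic acid, Ddx58 (RIG-I, a sensor of viral RNA) had 8.65, 8.76, 8.90, 8.56 and 9.16 on knockout arrays, against 8.76, 8.50, 8.51 and 8.18 on wild type arrays. The groups overlapped, and the difference of 0.32 (SE 0.15) had an adjusted p of 0.260 (limma). Its other probe set over the filter stood at 0.072. Ddx58 was the 1 gene of the 41 whose value on wild type replicate 3 lay below the mean of the other arrays. Ifih1 (MDA5, the sensor of long double-stranded RNA) ran from 9.11 to 9.62 in the knockout and from 9.25 to 9.49 in wild type, with a difference of -0.060 (SE 0.11, adjusted p 0.787). Dhx58 (LGP2, a related helicase that modulates both sensors) had 4.45, 4.58, 5.12, 4.62 and 4.66 in the knockout, against 4.84, 5.16, 4.09 and 4.59 in wild type, close to the floor of 4 and with overlapping groups.

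Zbp1 is a sensor of Z-form nucleic acid that can trigger cell death. Its values were 5.20, 5.05, 5.70, 4.98 and 4.94 in the knockout, against 5.49, 6.66, 5.39 and 5.46 in wild type. Only knockout replicate 3 reached into the wild type values. The difference was -0.57 (SE 0.27, adjusted p 0.281, limma), and -0.27 without wild type replicate 3. The second probe set of Zbp1, near the floor, differed by -0.054.

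The transcription factors that carry the interferon signal showed small differences. Irf1, induced by interferon gamma, stood at 0.11 (SE 0.13), Irf9 at -0.044 (SE 0.12), Stat2 at 0.058 (SE 0.15) and Irf7, the amplifier of type I interferon, at -0.17 (SE 0.27), with adjusted p-values of 0.673 to 0.862 (limma). Irf7 had 5.57, 5.87, 6.27, 6.38 and 5.97 in the knockout, against 5.70, 7.04, 6.01 and 5.97 in wild type. The value of Irf7 on wild type replicate 3 was 2.11-fold the mean of the other arrays. For Irf9 and Stat2 the highest array was wild type replicate 1, at 8.49 and 7.09.

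Nlrc5, the transactivator of class I genes, had 9.78, 9.86, 9.83, 10.10 and 10.07 in the knockout, against 10.08, 10.57, 10.15 and 10.23 in wild type. Of the knockout arrays only replicate 4 exceeded the lowest wild type value. The difference was -0.33 (SE 0.11), with an adjusted p of 0.178 (limma) and of 0.0892 to 0.377 over the alternative settings. It was -0.22 without wild type replicate 3.

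Among the regulators, Usp18, which removes ISG15 from proteins and blocks the interferon receptor, had 6.41, 6.09, 6.71, 6.13 and 6.09 in the knockout, against 6.72, 7.97, 6.23 and 6.11 in wild type. Its value on wild type replicate 3 was 3.15-fold the mean of the other arrays, and the difference between genotypes was -0.47 (SE 0.35), or -0.063 without that array. Trim25, the ubiquitin ligase that acts with RIG-I, had 10.33, 10.41, 10.28, 10.63 and 10.38 in the knockout, against 10.42, 11.02, 10.49 and 10.40 in wild type, a difference of -0.17 (SE 0.14). All 3 of its probe sets over the filter were lower in the knockout, by 0.17 to 0.40 on the log2 scale. Parp9 and Parp14, ADP-ribosyltransferases induced by interferon, stood at 0.082 (SE 0.084) and 0.031 (SE 0.14). In limma the adjusted p-values of these 4 genes were 0.483 to 0.921.

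Of the 15 antiviral effectors, 3 were higher in the knockout and 12 lower, with a median of -0.12, and 0.080 without wild type replicate 3. Ifit1, which binds foreign RNA caps, had 8.27, 7.53, 8.55, 7.81 and 7.47 in the knockout, against 7.99, 10.14, 8.14 and 7.13 in wild type. The highest and the lowest of the 9 values were both in wild type. Its difference was -0.42 (SE 0.54, adjusted p 0.685, limma) with all arrays and 0.17 without wild type replicate 3, where the value was 4.86-fold the mean of the other arrays. Its relatives Ifit2 and Ifit3 stood at 0.14 (SE 0.13) and -0.098 (SE 0.32). Ifit2 spanned 8.96 to 9.13 over the 5 knockout arrays and 8.59 to 9.29 over the 4 wild type arrays.

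Rsad2 (viperin, which makes a chain-terminating nucleotide) had 9.21, 8.45, 9.34, 10.20 and 9.60 in the knockout, against 9.67, 11.34, 10.17 and 9.32 in wild type. Knockout replicates 2 and 4 lay farther apart than the genotypes, whose difference was -0.76 (SE 0.44, adjusted p 0.368, limma). The second probe set over the filter stood at -0.53 (SE 0.39). Rsad2 was the gene with the largest negative difference of the 41, and it stood at -0.36 without wild type replicate 3.

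The 2′-5′ oligoadenylate synthetase genes encode enzymes that switch on RNase L, and Oasl1 and Oasl2 belong to the same family. Oasl1 had 4.62, 4.01, 4.52, 4.22 and 4.53 in the knockout, against 4.51, 6.39, 4.52 and 4.58 in wild type. Every other array was close to the floor of 4, where values are compressed, and the value on wild type replicate 3 was 3.86-fold their mean. Its difference was -0.62 (SE 0.38, adjusted p 0.385, limma). Oasl2 stood at -0.25 (SE 0.27), Oas1a at -0.22 (SE 0.15) and Oas2 at -0.074 (SE 0.11). Oas3, under the filter, lay between 3.36 and 3.90 in the knockout and between 3.88 and 4.75 in wild type, with wild type replicate 3 the highest.

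Mx1 encodes an antiviral GTPase, and C57BL/6 mice are known to carry a defective allele. It had 5.82, 5.82, 6.29, 5.88 and 5.39 in the knockout, against 5.70, 7.49, 5.33 and 5.36 in wild type. With all arrays the difference was -0.13 (SE 0.42, adjusted p 0.895, limma), and without wild type replicate 3 it was 0.38 (adjusted p 0.367). Over the alternative settings its adjusted p ran from 0.226 to 0.992. Mx2, under the filter, ran from 3.72 to 4.32 in the knockout and from 3.42 to 4.11 in wild type.

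Eif2ak2 (PKR, which halts translation) had 7.90, 8.03, 8.02, 7.88 and 7.88 in the knockout, against 7.88, 7.92, 7.74 and 7.84 in wild type, a difference of 0.097 (SE 0.061, adjusted p 0.402, limma). Its other 2 probe sets over the filter had the opposite sign, at -0.069 and -0.10. Ifitm3, which blocks viral entry at endosomes, had 12.71, 12.67, 12.75, 12.70 and 12.72 in the knockout, against 12.73, 12.83, 12.53 and 12.79 in wild type. The 5 knockout values lay close together and inside the wild type range. Bst2 (tetherin), Xaf1 and Rtp4 stood at -0.12 (SE 0.20), -0.11 (SE 0.16) and -0.19 (SE 0.22), and each was highest on wild type replicate 3. Ifi35 stood at 0.075 (SE 0.070), and the probe set used did not peak there. Another of its probe sets over the filter was highest on wild type replicate 3, at 7.25, with a difference of -0.14. A further probe set of Ifi35, with a difference of -0.014, was not.

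The interferon-induced GTPases, which act on the membranes around intracellular parasites, were lower in the knockout in 5 of 5, with a median of -0.26, and 0 of 5 passed the threshold. Igtp (Irgm3) had 10.31, 10.46, 10.12, 10.26 and 10.38 in the knockout, against 10.49, 11.31, 10.39 and 10.47 in wild type. Knockout replicate 2 overlapped with wild type and the other 4 did not. The difference was -0.36 (SE 0.18, adjusted p 0.299, limma). Without wild type replicate 3 the median of the group was -0.023, with 2 of 5 higher in the knockout.

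Irgm1, a regulator of the other IRG GTPases, had 7.74, 7.83, 7.71, 7.82 and 7.73 in the knockout, against 7.95, 8.40, 7.80 and 7.76 in wild type, a difference of -0.21 (SE 0.12, adjusted p 0.367, limma). Iigp1, an effector of the same family, stood at -0.26 (SE 0.23), and its second probe set at -0.41 (SE 0.26). The guanylate-binding protein genes Gbp2 and Gbp3 stood at -0.082 (SE 0.13) and -0.26 (SE 0.21). On wild type replicate 3 the 5 genes were 1.40-fold (Gbp2) to 2.13-fold (Iigp1) the mean of the other arrays.

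Among the class I presentation genes, 7 of 8 were lower in the knockout, with a median of -0.18, and -0.031 without wild type replicate 3. H2-K1, a heavy chain of classical class I, had 11.30, 11.42, 11.39, 11.46 and 11.34 in the knockout, against 11.56, 11.89, 11.47 and 11.76 in wild type. The groups did not overlap, though replicate 4 of the knockout and replicate 4 of wild type nearly met. The difference was -0.29 (SE 0.090), with an adjusted p of 0.153 (limma) and of 0.0826 to 0.558 over the alternative settings. Without wild type replicate 3 it was -0.21 (SE 0.078, adjusted p 0.274).

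H2-D1, the other classical heavy chain of this strain, had 11.43, 11.51, 11.50, 11.50 and 11.47 in the knockout, against 11.56, 11.96, 11.50 and 11.80 in wild type. Wild type replicate 4 lay within the knockout range and the other 3 wild type arrays above it. The difference was -0.22 (SE 0.093, adjusted p 0.232, limma), or -0.14 without wild type replicate 3. Of the 11 probe sets of H2-K1 and H2-D1 over the filter, 9 were lower in the knockout, by 0.21 to 0.38 on the log2 scale, and the other 2 were higher, by 0.058 and 0.13. Of the 3 probe sets near the floor, with knockout means of 4.33, 4.63 and 4.87, the first was lower in the knockout and the other 2 were the higher ones. In 2 of the 11 the groups did not overlap, which 2.62% of all named probe sets did toward lower knockout values, and 8 of the 11 were highest on wild type replicate 3. None of the 11 passed the adjusted threshold over all named probe sets, which 0.0792% of them did, and the lowest adjusted p was 0.144 (limma). Class I heavy chain genes are near-identical copies, and most of these probe sets are of the kind marked as open to cross-hybridisation, so the 11 are not independent and may read further class I genes.

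**Figure D4:**
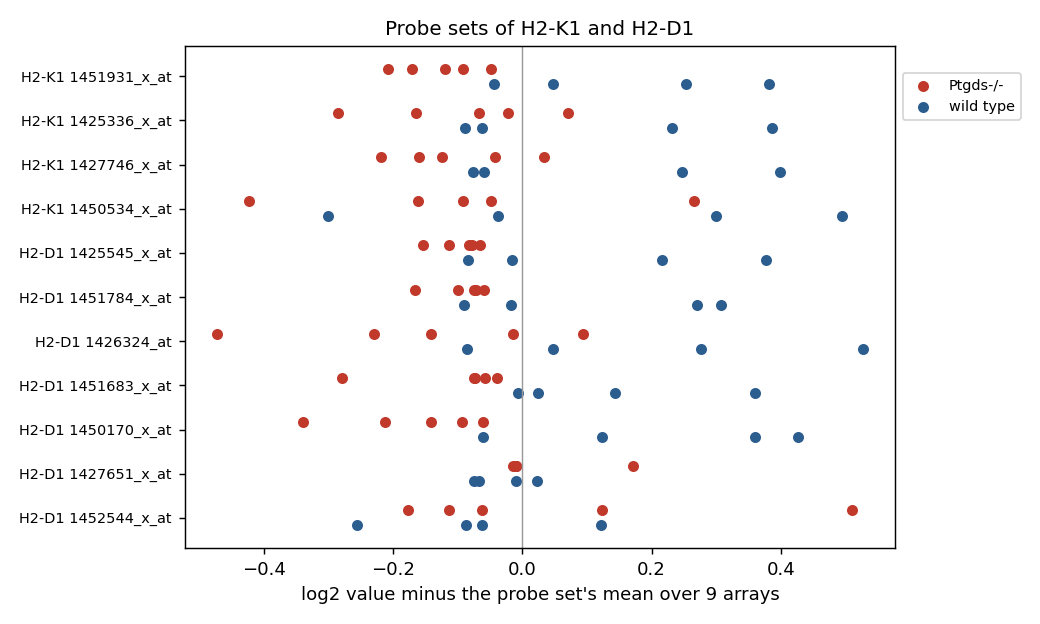
Each row is a probe set of H2-K1 or H2-D1 over the filter, with the log2 value minus its mean over the 9 arrays on the horizontal axis, Ptgds-/- in red (5 points) above wild type in blue (4 points). In 9 of the 11 rows the knockout mean is lower, and in 2 rows the red and blue points do not overlap.

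B2m, the light chain, had 13.21, 13.21, 13.22, 13.26 and 13.22 in the knockout, against 13.21, 13.40, 13.18 and 13.35 in wild type, a difference of -0.060 (SE 0.059, adjusted p 0.594, limma). Tapbp (tapasin, which loads peptide) stood at -0.014 (SE 0.065) and Tap2, a chain of the peptide transporter, at 0.0053 (SE 0.076), with 6.69, 6.80, 6.70, 6.74 and 6.57 in the knockout, against 6.70, 6.85, 6.52 and 6.71 in wild type. Psmb8 and Psmb9, catalytic subunits of the immunoproteasome, and Tap1, the partner of Tap2, stood at -0.26 (SE 0.20), -0.26 (SE 0.19) and -0.14 (SE 0.18). These 3 were 1.85-fold, 1.83-fold and 1.66-fold the mean of the other arrays on wild type replicate 3. Tap2 was 1.12-fold and Tapbp 1.06-fold.

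Probe sets of 1 gene did not always move alike. Of 16 genes with more than 1 probe set over the filter, 10 had differences of 1 sign and 6 of both signs. For Parp14, Ifi35, Eif2ak2, Tap1, Tapbp and H2-D1 the sign between genotypes therefore depends on the probe set. The second probe set over the filter stood at 0.013 for Tap1 and at 0.0090 for Tapbp. The probe set that Isg15 shares with the gene Gm9706 ran from 5.57 to 6.26 in the knockout and from 5.44 to 6.28 in wild type.

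The ISRE letters did not separate the genes by their size on wild type replicate 3. The 15 tested genes with the ISRE core had a median excess of 0.60 there over the other 8 arrays, and the 15 with a promoter in the table but without the core also had 0.60. The core was in 5 of 11 genes at least 0.5 above every other array and in 10 of 19 of the rest. Oasl1, with 1 of the largest excesses, held no core match in its window. Ddx58 and Eif2ak2 held 1 each, after the start site, and the probe sets used had excesses of -0.19 and 0.018. For Eif2ak2 this depended on the probe set, since others over the filter had excesses of 0.23 and 0.28.

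Beyond the 41 genes, further interferon-induced genes split evenly with all arrays. Of 33 tested, 17 stood higher in the knockout and 16 lower, beside 56.7% of all genes higher. The median was 0.028 and 0 passed the threshold (limma). Without wild type replicate 3, 23 stood higher and 10 lower, with a median of 0.099, beside 56.3% of all genes higher. An unadjusted p under 0.05 was found for 5 of 33, beside 19.9% of all genes. The 3 with the smallest p were Pml, a nuclear body protein gene, at 0.48 (SE 0.14, adjusted p 0.148), Irgm2 at -0.49 (SE 0.16, adjusted p 0.171) and Ifi47 at -0.45 (SE 0.15, adjusted p 0.173). The last 2 are IRG GTPases, as are Igtp and Irgm1.

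Of these 33, 18 were highest on wild type replicate 3 (16.3% of all genes), and 7 were at least 0.5 above every other array there (3.99% of all genes). Cxcl10, a chemokine that draws T cells and a marker of interferon gamma, had 5.53, 5.51, 5.53, 6.03 and 6.05 in the knockout, against 5.91, 9.02, 5.47 and 5.86 in wild type, and Cxcl9, its relative, reached 9.69 on wild type replicate 3, against 7.68 to 8.41 on the other arrays. Cd274 (PD-L1) had 10.18 there, against 8.50 to 9.05 elsewhere. These 3 were named after their values were seen.

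The receptors and signalling genes and the upstream sensors and adaptors were highest on wild type replicate 3 in 2 of 15 and 1 of 14, beside 16.3% of all genes. In both lists 0 genes passed the threshold (limma), while the unadjusted p was under 0.05 for 7 of 15 and 5 of 14, beside 19.9% of all genes. Tyk2, a receptor kinase, stood at 0.47 (SE 0.13, adjusted p 0.136). Socs3, an inhibitor of cytokine signalling, stood at -0.80 (SE 0.23, adjusted p 0.142) and Ifngr1, a chain of the interferon gamma receptor, at -0.31 (SE 0.094, adjusted p 0.15). Ifngr1 had 9.39, 9.38, 9.41, 9.54 and 9.40 in the knockout, against 9.56, 9.76, 9.59 and 10.01 in wild type. The groups did not overlap for Ifngr1 or Socs3. In all, 3 of the 15 genes had knockout values all below the wild type values, beside 2.16% of all genes.

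Irf3, the factor that RNA and DNA sensors activate, had 9.81, 10.03, 9.95, 9.86 and 9.94 in the knockout, against 9.73, 9.48, 9.53 and 9.51 in wild type. The groups did not overlap, and the difference was 0.36 (SE 0.071, adjusted p 0.105, limma), or 0.33 without wild type replicate 3. Tlr3, an endosomal sensor of double-stranded RNA, stood at 0.20 (SE 0.064, adjusted p 0.153, limma). Its adaptor Ticam1 stood at -0.20 (SE 0.060, adjusted p 0.148), and in both genes the groups did not overlap. Of the 14 sensors and adaptors, 2 had no overlap with the knockout higher and 1 with it lower. Over all genes the share without overlap was 6.76% in either direction.

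Of the further class I genes, 7 of 9 were lower in the knockout, with a median of -0.071 and 0 past the threshold (limma). Tapbpl, a peptide editor related to tapasin, stood at -0.33 (SE 0.10, adjusted p 0.15), the class I-like gene H2-Q10 at -0.68 (SE 0.27, adjusted p 0.211) and Erap1, which trims peptides, at -0.15 (SE 0.093, adjusted p 0.407). H2-Q10 was highest on wild type replicate 1, at 10.12.

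Class II genes, made by antigen-presenting cells, were lower in the knockout in 6 of 6 tested (43.3% of all genes), with a median of -0.75, and in 6 of 6 without wild type replicate 3, with a median of -0.57. The adjusted threshold was passed by 0 of 6 (limma), and 5 of 6 had an unadjusted p under 0.05, where 19.9% of all genes did and 7.12% on the lower side. Without wild type replicate 3, 2 of 6 had an unadjusted p under 0.05 (limma), beside 15.3% of all genes. That replicate was the highest array in 6 of 6, beside 16.3% of all genes, and in 0 of 6 by at least 0.5 above every other array. H2-Eb1 had 9.67, 9.40, 9.63, 10.10 and 9.55 in the knockout, against 10.57, 11.25, 9.79 and 10.82 in wild type, and differed by -0.94 (SE 0.27, adjusted p 0.141). Wild type replicate 4 lay within the knockout range and the other 3 wild type arrays above it, as for H2-D1. H2-Ab1 and H2-Aa stood at -0.90 (SE 0.28, adjusted p 0.154) and -0.67 (SE 0.23, adjusted p 0.174). Of 18 leukocyte markers tested, 10 were lower in the knockout and 8 higher, with 0 past the threshold (limma). Among those of macrophages and dendritic cells, Itgax differed by -0.92 (adjusted p 0.141, limma), Cd68 by -0.41, Adgre1 by -0.38 and Lyz2 by -0.33. Csf1r stood at -0.019, and Siglech, of plasmacytoid dendritic cells, was higher in the knockout, at 0.21. Itgax ran from 5.08 to 5.70 in the knockout and from 5.69 to 6.98 in wild type. The part of such cells in the class II values was not tested.

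Markers of other cells differed between arrays as well. The mean of 18 leukocyte markers was 6.60, 6.15, 6.67, 7.33 and 6.60 in the knockout, against 6.23, 7.09, 6.21 and 7.14 in wild type. Knockout replicate 4 and wild type replicate 5 lay above wild type replicate 3 in this mean. The mean of the 41 genes on those arrays was 8.62 and 8.53, against 9.28 on wild type replicate 3. The leukocyte mean mixes cell types, so it does not rank the arrays for any single type. The B cell markers Ms4a1, Cd79a and Cd79b had 7.94, 7.17 and 6.57 on knockout replicate 4. On wild type replicate 3 they had 5.08, 5.38 and 5.24. The neutrophil marker S100a8 had 7.17 on wild type replicate 5, against 5.71 on wild type replicate 3. Of the 18, 6 were highest on wild type replicate 3: Ptprc, Cd3e, Cd3d, Nkg7, Itgax and Coro1a. Nkg7, a gene of cytotoxic T and natural killer cells, had 7.35 there, against 4.85 to 6.41 elsewhere. The T cell genes did not move alike. Cd3e had 7.74 there, against 5.87 to 7.65 elsewhere, and Cd3d had 5.95, against 3.81 to 5.73. Cd8a had 5.42 there and Cd4 4.31, below their highest values of 6.41 and 5.10 on knockout replicate 4. Itgam and Cd3g lay under the filter, with Itgam at 2.60 to 3.02 over all arrays. Cd3g was highest on wild type replicate 3, at 4.20, against 2.80 to 4.04 elsewhere. The single markers were named after their values were seen.

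Neuron and Schwann cell markers were highest on the same array in 5 of 5 genes, with a mean of 11.52 there, against 5.45 to 9.90 on the knockout arrays and 5.36 to 8.53 on the other wild type arrays. Knockout replicate 1 had the next highest neuronal mean, 9.90, and its mean of the 41 genes, 8.51, was the lowest of the knockout. The 3′ minus 5′ signal of the Gapdh control, a measure of RNA integrity, ran from 2.57 to 3.23 in the knockout and from 2.48 to 3.32 in wild type, with wild type replicate 3 the lowest at 2.48. The same signal of the actin control ran from 2.42 to 2.73 in the knockout and from 2.29 to 2.61 in wild type, with wild type replicate 3 the highest wild type array. The part of leukocytes, neural tissue, smooth muscle or RNA quality in the values of wild type replicate 3 was not tested.

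**Figure D5:**
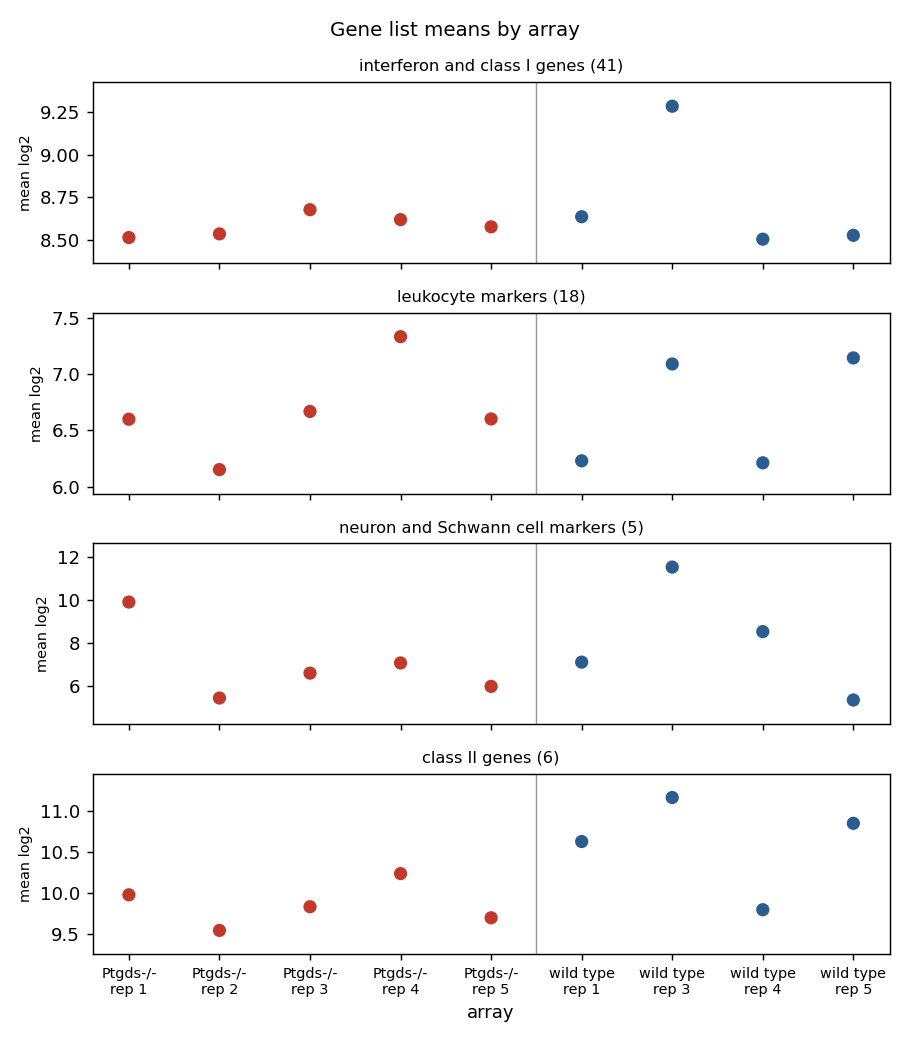
Mean log2 value (vertical axes) of 4 gene lists on each array, Ptgds-/- in red on the left and wild type in blue on the right. The 41 interferon and class I genes peak on wild type replicate 3 alone (9.28). The mean of the 18 leukocyte markers, a mix of cell types, is as high on knockout replicate 4 and wild type replicate 5. Of these 18, 6 are highest on wild type replicate 3. Neuron markers also stand high on knockout replicate 1, and class II genes are also high on wild type replicates 1 and 5.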

How the data were processed

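Total RNA of the aorta was hybridised to 1-colour Affymetrix arrays. Before deposit the authors turned the scans into log2 values per probe set by GCRMA, a background correction with normalization across arrays, per the submitters' processing notes. The version is not given in the sources used here, and the log2 scale is inferred from the range of the values. Of 45101 probe sets, 34945 carry 1 symbol. Controls (64) and those with several symbols (932) or none here (9160) were left out.

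Genotypes were fitted over 14321 genes by limma 3.58.1 under R 4.3.3, as 5 against 4 arrays with no covariate, with Benjamini-Hochberg adjustment at 0.05. Differences are knockout minus wild type with the moderated standard error (SE). The procedure was tested on simulated data. The number of arrays limits the precision. The members, lists and tests were chosen with earlier results of these data known. Values per array are given for the 10 members with the smallest p and, in each role, for the smallest p, the brightest and the dimmest, and for the 3 smallest p of each pathway list differences are given. Ifit1, Irf7, Mx1, Usp18, Cxcl9, Cxcl10, Cd274 and the cell type markers named singly were added after their values were seen. Alternatives were the normalization, centring, filter, probe set rule, variance model, array weights, replicate block and arrays left out. Promoters are of GRCm38.p6 (RefSeq).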

Additional observations from a re-analysis of the deposited data

Results flagged for a closer look

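Dixon's gap test at its 95% critical values was run on each tested gene within each genotype, and chance passes about 1 in 20 groups. It passed in 10 of 82 pairs of gene and genotype, 2 in the knockout and 8 in wild type, and in 7 of these the highest array was wild type replicate 3. Over all 14321 tested genes, 8.68% passed in the knockout and 7.3% in wild type, beside 4.88% and 19.5% of the 41, and 1.63% passed with wild type replicate 3 as the highest wild type array, beside 17.1% of the 41. The gap between that array and the next, as a share of the wild type range, was 0.966 for Oasl1, 0.922 for Zbp1, 0.901 for Igtp, 0.894 for Rtp4, 0.89 for Iigp1, 0.854 for Tap1 and 0.849 for Trim25. The same array stood apart in the mean of the GTPases (0.868) and in the mean of all 41 genes (0.831). Ifit1, with the largest excess of the 41 there, did not pass.

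In the other 3 pairs, Oas1a was low on knockout replicate 2 (6.33, gap share 0.818), B2m was high on knockout replicate 4 (13.26, gap share 0.713) and Tapbp was low on wild type replicate 4 (12.46, gap share 0.896). The range of B2m over the knockout arrays was small.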

How the results depend on the processing

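Of the 41 tested genes, 0 passed the adjusted threshold (limma) with all arrays or under the 19 alternative fits, and with all arrays 0 passed at an adjusted p of 0.1. With all arrays 3 had an unadjusted p under 0.05. The lowest adjusted p-values were those of Ifit2 without wild type replicates 1 and 3 (difference 0.37, SE 0.078, adjusted p 0.0558) and H2-K1 without wild type replicate 1 (difference -0.32, adjusted p 0.0826). Over all genes, 8 passed with all arrays, 19 with a floor of 6, 33 with trend and robust options, 73 with array weights, 432 without wild type replicates 1 and 3, and 86 at an adjusted p of 0.1. Leaving out 1 array gave 2 to 1051 genes, the most without wild type replicate 1 (7.34% of genes), and the cause was not tested.

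Genes of the 41 higher in the knockout numbered 10 with all arrays, 17 with array weights, 27 without wild type replicates 1 and 3, and 5 to 24 with 1 array left out. With 1 array left out, medians ran from -0.22 to 0.026 for the 41 genes, -0.15 to 0.12 for sensors and regulators, -0.29 to 0.080 for effectors, -0.33 to -0.023 for GTPases and -0.25 to -0.031 for class I presentation.

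Signs changed as follows, and the cause was not tested. Without wild type replicates 1 and 3 the differences were Irf7 0.0249, Irf9 0.1423, Usp18 0.1209, Ifit1 0.2924, Ifit3 0.3614, Oas1a 0.0331, Oas2 0.0158, Oasl2 0.0005, Mx1 0.4994, Bst2 0.1421, Xaf1 0.1329, Rtp4 0.0666, Ifitm3 0.0489, Gbp2 0.0789, Iigp1 0.0498, Tap1 0.0870 and Tapbp 0.0417. With array weights they were Irf9 0.0502, Ifit1 0.0227, Ifit3 0.1691, Mx1 0.2318, Xaf1 0.0217, Ifitm3 0.0084 and Tapbp 0.0110. With the mean of the probe sets they were Parp14 -0.0441, Ifi35 -0.0276 and Eif2ak2 -0.0249. With the probe set of largest SD they were Parp14 -0.1191, Ifi35 -0.0143, Eif2ak2 -0.1026 and Tapbp 0.0090. With quantile normalization again they were Ifitm3 0.0002 and Tapbp 0.0030. With 1 array left out, the ranges that span 0 were Dhx58 -0.1793 to 0.1776, Irf1 -0.0038 to 0.2325, Irf7 -0.3275 to 0.1205, Irf9 -0.1481 to 0.0262, Stat2 -0.0591 to 0.1696, Parp14 -0.0620 to 0.1693, Ifit1 -0.8302 to 0.1740, Ifit3 -0.3609 to 0.2085, Oasl2 -0.3954 to 0.0490, Mx1 -0.3407 to 0.3805, Bst2 -0.3080 to 0.0767, Xaf1 -0.1965 to 0.0869, Rtp4 -0.2941 to 0.0800, Ifitm3 -0.0758 to 0.0260, Gbp2 -0.1921 to 0.0477, Iigp1 -0.3719 to 0.0162, Tap1 -0.2197 to 0.0506, Tap2 -0.0523 to 0.0555 and Tapbp -0.0747 to 0.0086.

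Same-numbered arrays correlated in their deviations from the group means at -0.36, -0.15, 0.060 and 0.21 for numbers 1, 3, 4 and 5. For wild type number 5 the knockout array with the highest correlation had the same number, and for numbers 1, 3 and 4 it had another. So few correlations cannot decide whether the replicate numbers pair the samples. The fit with the replicate number as a block also left out knockout replicate 2, whose number had no wild type array. In it 0 genes passed, the lowest adjusted p of the 41 was 0.357 (limma), and Parp14 stood at -0.0175 and Tap2 at -0.0185. Its differences were those of the fit without knockout replicate 2 and with no block. The median of the 41 genes was -0.1191 in both, and Ifih1 stood at -0.0245 in both.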
